A study of Mus musculus with 6 samples.

Results

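The genes described here are 10 mouse synaptic organiser genes of 3 families, Lrrtm1, Lrrtm2, Lrrtm3 and Lrrtm4, Lrrc4, Lrrc4b and Lrrc4c, and Cbln1, Cbln2 and Cbln4. They were picked by symbol from the 23366 genes of the deposited count files, and all 10 were found there. The choice was made with the difference between wild type and knockout already known, because members of these families moved in opposite directions. Their values in that comparison are therefore a description of these libraries. The libraries were made from dissected palatal shelves, the outgrowths of the maxillary processes that fuse into the secondary palate, of mouse embryos at E14.25. The control group has 3 libraries with the genotype WT, numbered 2, 3 and 4 in the titles and called WT2, WT3 and WT4 here. The knockout group has 3 libraries with the genotype Kmt2dfl/fl Wnt1-Cre, called KO1, KO2 and KO3, in which Cre recombinase under Wnt1 regulatory sequences acts on floxed alleles of Kmt2d, a histone H3 lysine 4 methyltransferase gene. Wnt1-Cre marks neural crest and dorsal neural tube, so palatal mesenchyme, Schwann cells and other crest derivatives fall in its lineage, whereas epithelium, endothelium, muscle and leukocytes of the shelf do not.

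Synaptic organisers are membrane or secreted proteins that bring the presynaptic and postsynaptic sides of a contact together. The LRRTM proteins are postsynaptic leucine-rich repeat proteins that bind presynaptic neurexins, and LRRTM4 also binds heparan sulphate proteoglycans such as glypicans. The netrin-G ligands are a related leucine-rich repeat family, in which Lrrc4c encodes NGL-1, the partner of netrin-G1, Lrrc4 encodes NGL-2, the partner of netrin-G2, and Lrrc4b encodes NGL-3, which binds the receptor tyrosine phosphatases of the LAR group. Cerebellins are secreted proteins of the C1q family, and Cbln1 and Cbln2 join neurexins to glutamate receptors of the delta class, such as the product of Grid1, while Cbln4 can also bind the netrin receptors Dcc and Neo1. These genes are known from the brain, and their roles in palatal mesenchyme are not established by such functions.

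Gene counts summed to 12721979 to 24916079 read pairs per library. KO2 stood apart from the other 5 libraries. In it 47.5% of the listed pairs fell outside annotated genes, against 12.3% to 18.1% elsewhere, and its log2 CPM correlated across genes with the others at 0.922 to 0.942, against 0.967 to 0.987 among the others. Values without this library are therefore given beside the results. KO1 and KO3 stood apart in another measure, the share of gene counts on the ribosomal RNA precursor gene Rn45s, at 35.1% and 30.02%, against 16.2% to 20.7% in the wild type and 18.6% in KO2. Their scaling factors were 0.837 and 0.896, against 1.04 to 1.13 in the other libraries. The targeted gene, listed as Mll2, stood at 197, 211 and 171 CPM in WT2, WT3 and WT4 and at 254, 539 and 194 CPM in KO1, KO2 and KO3. Exons left in place by the deletion are part of this sum, so it is no check of the labels. CPM is the count scaled by the normalised library size. The palatal mesenchyme markers Prrx1, Osr2, Twist1, Shox2, Tbx22, Msx1, Pax9, Barx1, Meox2 and Pdgfra were counted in every library, with summed levels of 1569 to 1626 CPM in the wild type and 1729 to 2042 CPM in the knockout.

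Lrrtm3, Lrrc4c and Cbln4, 1 member of each family, were higher in the knockout, and Lrrc4b was lower. Lrrtm3 was 2.22-fold, Lrrc4c 1.89-fold and Cbln4 3.81-fold higher, and Lrrc4b was 1.91-fold lower. The other 6 genes overlapped between the groups. In KO2, whose Rn45s share lay within the wild type range, Lrrtm3, Lrrc4c and Cbln4 were also above all wild type libraries and Lrrc4b below them. Any part of the Rn45s share or of the scaling in these values was not tested. Of the 10 members, all of which passed the filter on low counts, 4 passed an adjusted p of 0.05 in the fit over all 14233 genes tested (edgeR quasi-likelihood test), 3 higher and 1 lower, where that fit called 0.534% of all genes, 0.0984% higher and 0.436% lower. The same 4 were the members whose groups did not overlap, a separation seen in 12.3% of all genes tested with the knockout above and in 11.2% with the knockout below. Nothing is read from these counts, since the comparison was used to choose the genes. The median log2 fold change, knockout over wild type, was 0.82 over the 10 members and 0.011 over all genes tested, and without KO2 it was 0.50 and 0.017. Counts from whole shelves do not tell fewer cells of a type from less RNA per cell.

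**Figure D1:**
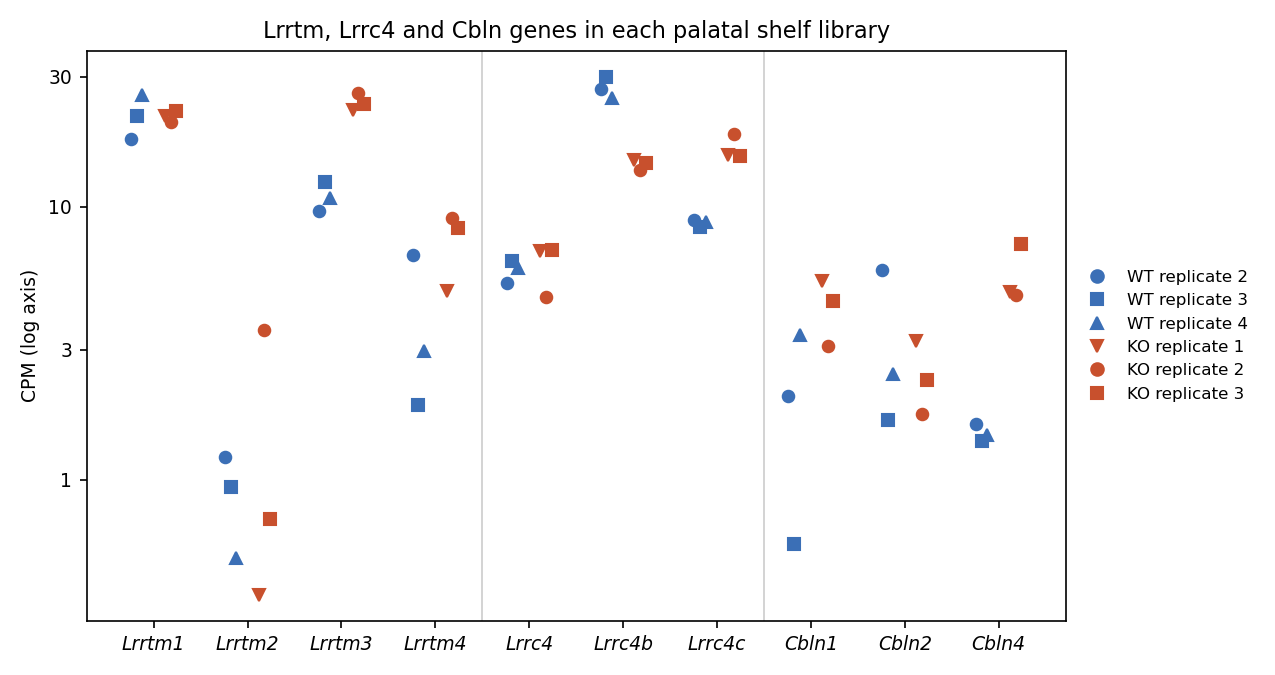
CPM (log axis) of each of the 10 genes in the 3 wild type (blue) and 3 knockout (orange) libraries, with the marker shape giving the replicate number and grey lines parting the families. Lrrtm3, Lrrc4c and Cbln4 have all knockout points above all wild type points, Lrrc4b has them all below, and the other 6 genes overlap.

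The promoters of the 4 genes that separated the groups are shown because these are the members that moved, 3 up and 1 down. Each is the RefSeq window from 250 bases before to 50 bases after an annotated start, read from the GRCm38.p6 build on the gene's strand, whereas the counts were made on mm9. Lrrtm3 lies at chr10:64090206-64090505 on the minus strand, Lrrc4c at chr2:96317919-96318218 on the plus strand, Cbln4 at chr2:172043417-172043716 on the minus strand and Lrrc4b at chr7:44442237-44442536 on the plus strand. Capitals mark CG dinucleotides.
Lrrtm3: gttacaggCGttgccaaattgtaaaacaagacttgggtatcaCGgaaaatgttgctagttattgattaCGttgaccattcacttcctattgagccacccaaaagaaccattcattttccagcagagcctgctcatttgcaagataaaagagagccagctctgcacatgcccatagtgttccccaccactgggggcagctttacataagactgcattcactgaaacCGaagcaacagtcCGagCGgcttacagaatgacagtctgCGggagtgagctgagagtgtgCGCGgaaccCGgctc
Lrrc4c: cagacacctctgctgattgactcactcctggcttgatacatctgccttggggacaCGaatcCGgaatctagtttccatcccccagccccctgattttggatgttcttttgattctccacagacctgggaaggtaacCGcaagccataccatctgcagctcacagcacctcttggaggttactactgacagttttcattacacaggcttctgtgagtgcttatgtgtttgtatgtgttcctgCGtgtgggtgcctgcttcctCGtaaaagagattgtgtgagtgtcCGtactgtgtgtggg
Cbln4: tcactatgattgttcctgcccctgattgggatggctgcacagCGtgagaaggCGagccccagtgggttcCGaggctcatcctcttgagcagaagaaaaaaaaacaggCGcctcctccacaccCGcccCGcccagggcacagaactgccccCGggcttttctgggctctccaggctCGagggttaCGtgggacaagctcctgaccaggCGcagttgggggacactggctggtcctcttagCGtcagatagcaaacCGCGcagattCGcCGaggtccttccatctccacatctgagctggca
Lrrc4b: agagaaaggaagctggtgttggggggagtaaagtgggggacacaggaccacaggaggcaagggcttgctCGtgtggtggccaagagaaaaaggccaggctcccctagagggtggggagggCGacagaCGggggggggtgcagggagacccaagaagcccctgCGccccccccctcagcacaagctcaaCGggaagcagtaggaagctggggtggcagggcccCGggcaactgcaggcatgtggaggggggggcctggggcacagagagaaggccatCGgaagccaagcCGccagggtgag
The windows held 10 CG dinucleotides for Lrrtm3, 6 for Lrrc4c, 15 for Cbln4 and 8 for Lrrc4b, against a median of 7 and quartiles of 3 and 20 over 32851 promoter windows. The GC content was 48.7% to 60.3% for the 3 genes that were higher and 66.3% for Lrrc4b, against a median of 52.7%. So the gene that was lower had the highest GC content of the 4 but a CG count between those of the genes that were higher. Short promoter motifs were searched on both strands. The CCAAT box occurred once in the Cbln4 window and in none of the other 3, and 37.4% of all windows hold it. The motif TATAAA, present in 13.6% of all windows, was in none of the 4. The octamer ATGCAAAT, present in 1.74%, was in none of them either. The E-box CAGCTG, present in 16.3%, was also in none. Windows were also found for Lrrtm1, Lrrtm4 and Lrrc4, with 4 to 10 CG dinucleotides, and none was used here for Lrrtm2, Cbln1 and Cbln2.

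In the LRRTM family, Lrrtm3 was higher in every knockout library, while Lrrtm1 overlapped between the groups. Lrrtm3 had 9.65, 12.3 and 10.8 CPM in WT2, WT3 and WT4 and 22.7, 26.3 and 23.8 CPM in KO1, KO2 and KO3. The lowest knockout library was thus far above the highest wild type library. Its log2 fold change was 1.15 with a standard error of 0.14 (edgeR, adjusted p = 0.0296) and 1.08 without KO2 (adjusted p = 0.00449). Lrrtm1, the neurexin ligand with the highest CPM of this family in the wild type, had 17.7, 21.5 and 25.7 CPM there and 21.5, 20.4 and 22.4 CPM in the knockout. All 3 knockout values of Lrrtm1 lay inside the wild type range, and its log2 fold change of -0.012 (SE 0.16) took either sign with single libraries left out, from -0.14 to 0.13.

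Lrrtm4, the member that also binds glypicans, varied within both groups. It had 6.66, 1.88 and 2.97 CPM in WT2, WT3 and WT4 and 4.94, 9.08 and 8.40 CPM in KO1, KO2 and KO3. KO2 and KO3 were above all wild type libraries, but WT2 was above KO1, and the log2 fold change of 0.95 (SE 0.47) did not pass (edgeR, adjusted p = 0.388). Without WT2 it was 1.61, and without WT3 it was 0.62. In the annotation used here 1543 exonic bases of Lrrtm4 overlap an antisense gene, Gm4409, and the strand setting of the counting is not given in the sources used here.

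Lrrtm2, the least abundant of the 10, rested on 6 to 47 read pairs per library. It had 1.21, 0.941 and 0.517 CPM in the wild type and 0.380, 3.56 and 0.718 CPM in the knockout. The exact 95% Poisson interval of KO2, 2.61 to 4.73 CPM, lay above those of the other 5 libraries, whose bounds ran from 0.139 to 1.69 CPM. These intervals cover counting error only. With all libraries the log2 fold change was 0.72 (SE 0.78, edgeR, adjusted p = 0.680), and without KO2 it was -0.70 (adjusted p = 0.621), so the direction of Lrrtm2 rests on that library.

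The netrin-G ligand family held the clearest opposition, with Lrrc4c higher and Lrrc4b lower in every knockout library. Lrrc4c (NGL-1) had 8.93, 8.42 and 8.78 CPM in WT2, WT3 and WT4 and 15.6, 18.5 and 15.4 CPM in KO1, KO2 and KO3. Lrrc4b (NGL-3) had 27.1, 30.02 and 24.97 CPM in the wild type and 14.9, 13.6 and 14.5 CPM in the knockout. Within each group the libraries of both genes lay close together, with the groups well apart. The log2 fold change was 0.92 (SE 0.14, edgeR, adjusted p = 0.0478) for Lrrc4c and -0.93 (SE 0.12, adjusted p = 0.0352) for Lrrc4b, and without KO2 these were 0.82 (adjusted p = 0.0150) and -0.91 (adjusted p = 0.00594). Lrrc4 (NGL-2) had 5.27, 6.32 and 5.98 CPM in the wild type and 6.90, 4.69 and 6.96 CPM in the knockout. KO2 had the lowest Lrrc4 value of the 6 and KO1 and KO3 the highest, and the log2 fold change was 0.084 (SE 0.22, edgeR, adjusted p = 0.875).

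Among the cerebellins, Cbln4 had the largest fold change of the 10 genes, from a low level. It had 1.60, 1.39 and 1.46 CPM in WT2, WT3 and WT4, from 31 to 45 read pairs, and 4.87, 4.77 and 7.35 CPM in KO1, KO2 and KO3, from 63 to 133 read pairs. The wild type libraries were nearly equal, and the lowest knockout library was above all of them. Its log2 fold change was 1.93 (SE 0.27, edgeR, adjusted p = 0.0394) and 2.03 without KO2 (adjusted p = 0.00689). Cbln1, the cerebellin of cerebellar granule cell synapses, had 2.03, 0.583 and 3.40 CPM in the wild type and 5.38, 3.10 and 4.53 CPM in the knockout. WT4 exceeded KO2, so the groups overlapped, and the log2 fold change of 1.11 (SE 0.54) did not pass (edgeR, adjusted p = 0.384), with 0.69 without WT3 and 1.70 without WT4. Cbln2 had 5.87, 1.66 and 2.45 CPM in the wild type and 3.23, 1.74 and 2.32 CPM in the knockout. The high value of WT2 set the sign of Cbln2, whose log2 fold change of -0.46 (SE 0.50, edgeR, adjusted p = 0.680) became 0.24 without that library.

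**Figure D2:**
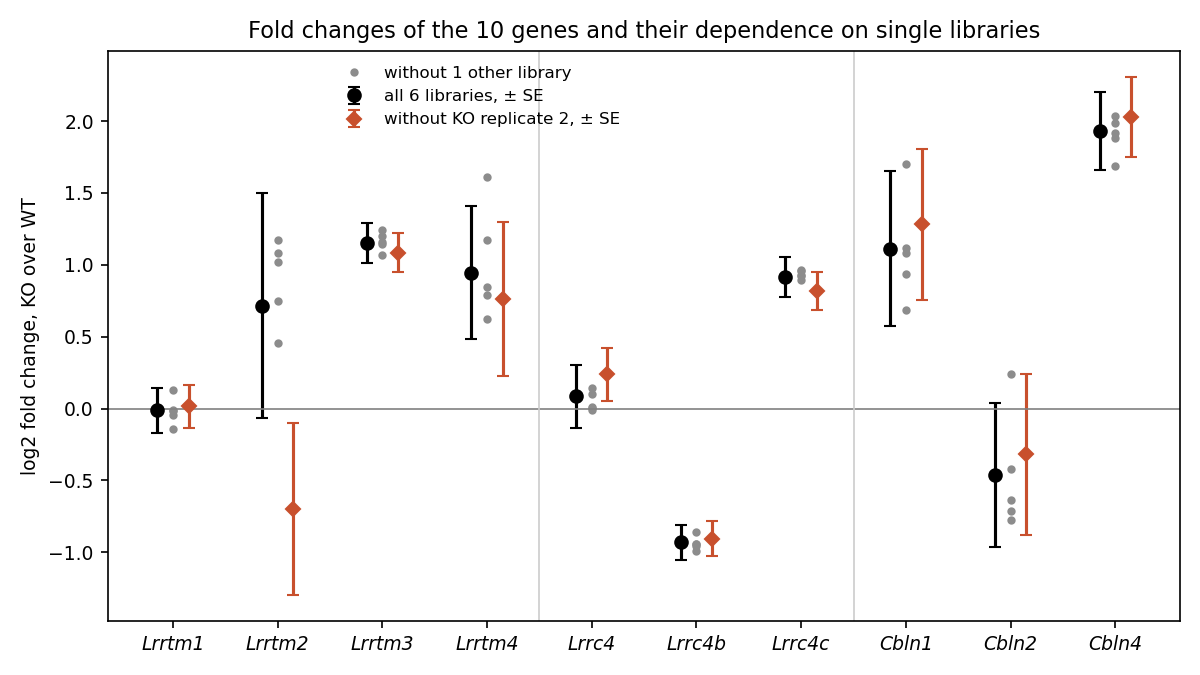
Log2 fold change, knockout over wild type, of the 10 genes with all 6 libraries (black, ± SE), without KO2 (orange, ± SE) and without each other library (grey points). Lrrtm3, Lrrc4c, Cbln4 and Lrrc4b keep close values in all fits, whereas Lrrtm2 turns from 0.72 to -0.70 without KO2 and Cbln2 turns to 0.24 without WT2.

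The 4 calls were close to the threshold in the edgeR fit of all 6 libraries. They all remained without KO2, where 2.12% of all genes passed, and all 4 were lost in each of the 5 fits that left out another library, with adjusted p of 0.0615 to 0.294 (edgeR). In those fits 0% to 0.138% of all genes passed. Lrrc4c also lost its call with other size factors (adjusted p = 0.0516 and 0.0503), with limma voom (adjusted p = 0.0529) and with edgeR's earlier quasi-likelihood method (adjusted p = 0.0522), and Cbln4 lost it with limma voom (adjusted p = 0.0529). The log2 fold changes themselves moved little with single libraries left out, from 1.07 to 1.24 for Lrrtm3, 0.82 to 0.96 for Lrrc4c, 1.69 to 2.03 for Cbln4 and -0.99 to -0.86 for Lrrc4b.

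Ratios of counts within a library need no scaling between libraries and show the opposition directly. Lrrtm3 had 0.545, 0.573 and 0.420 read pairs for each pair of Lrrtm1 in WT2, WT3 and WT4, and 1.06, 1.29 and 1.06 in KO1, KO2 and KO3. Lrrc4c had 0.330, 0.281 and 0.352 read pairs for each pair of Lrrc4b in the control libraries and 1.05, 1.36 and 1.06 in the knockout ones. In both ratios the less counted gene of the wild type reached or passed its partner in every knockout library. Such a ratio shows unequal change, not which gene changed.

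Levels between genes were compared per length, as CPM per kb of exonic sequence in the GENCODE vM21 models. The annotation behind the counts was not given in the sources used here, so these lengths may differ from the models counted. The order of genes and the family sums and shares below rest on these lengths, and the SDs do not cover that error. In the wild type the order was Lrrc4b at 10.03 ± 0.930, Lrrtm1 at 8.51 ± 1.58, Lrrtm3 at 2.80 ± 0.345, Lrrc4c at 1.88 ± 0.0565, Lrrc4 at 1.47 ± 0.134, Cbln2 at 1.15 ± 0.774, Cbln1 at 0.716 ± 0.503, Lrrtm4 at 0.646 ± 0.422, Cbln4 at 0.512 ± 0.0372 and Lrrtm2 at 0.157 ± 0.0616 CPM per kb (SD, n = 3 each). The ranges of mean ± SD overlapped for Lrrc4b and Lrrtm1 and for each pair of neighbours from Lrrc4 down to Cbln4, but not for the other neighbours in this order. In the knockout Lrrtm1 at 8.43 ± 0.392 came first, followed by Lrrtm3 at 6.23 ± 0.466, Lrrc4b at 5.26 ± 0.236 and Lrrc4c at 3.56 ± 0.376 CPM per kb (SD, n = 3 each). Cbln4 stood at 1.95 ± 0.503 CPM per kb there, beside Cbln1 at 1.55 ± 0.411 and Lrrc4 at 1.55 ± 0.323 (SD, n = 3 each), with overlapping ranges of mean ± SD.

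Levels of the 10 genes were also summed per family, and in these sums the groups did not overlap in any of the 3 families. The cerebellin sum leaves out Cbln3 and separated narrowly, with WT2 at 3.31 and KO2 at 3.35 CPM per kb. Of single genes tested, 12.3% separated with the knockout above and 11.2% with it below. Nothing is read from the separation of the sums, since they hold members chosen with this comparison known. The LRRTM sum was 12.1 ± 1.36 CPM per kb over the wild type libraries and 16.2 ± 0.905 over the knockout ones, the netrin-G ligand sum 13.4 ± 0.946 and 10.4 ± 0.192, and the cerebellin sum 2.38 ± 1.04 and 4.34 ± 0.863 (SD, n = 3 each). Lrrtm3 made up 20.6% to 26.2% of its family's sum in the wild type libraries and 37.1% to 39.8% in the knockout libraries. Lrrc4c made up 12.6% to 15.1% and 31.9% to 39.3%, while Lrrc4b went from 72.9% to 76.4% in the wild type to 49.2% to 51.7% in the knockout. Cbln4 overlapped in this measure, at 16.7% to 38.0% and 35.6% to 51.1%.

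**Figure D3:**
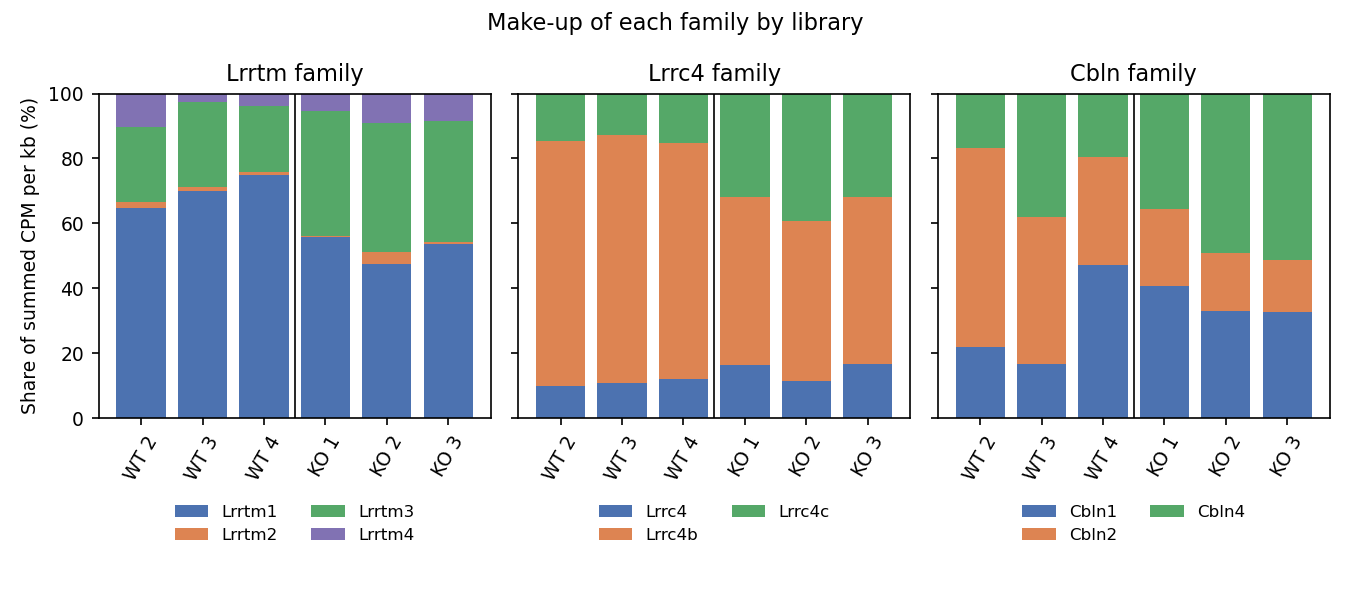
Share (%) of each member in its family's summed CPM per kb, in each of the 6 libraries, with a black line between wild type and knockout. Lrrtm3 takes at most 26.2% of its family in the wild type and at least 37.1% in the knockout, and Lrrc4b takes at least 72.9% and at most 51.7%.

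Of the 10 genes, 4 lie on the opposite strand inside another protein-coding gene, with no shared exonic base in the GENCODE vM21 models. Lrrtm1, Lrrtm2 and Lrrtm3 lie in the alpha-catenin genes Ctnna2, Ctnna1 and Ctnna3, which encode cytoplasmic linkers of cadherins to actin, and Lrrc4 lies in Snd1, which encodes a nuclease and RNA-binding protein. Around Lrrtm1, Ctnna2 had 8.19, 10.4 and 7.71 CPM in WT2, WT3 and WT4 and 12.2, 11.96 and 15.5 CPM in KO1, KO2 and KO3 (log2 fold change 0.60, SE 0.19, edgeR, adjusted p = 0.266). Around Lrrtm3, Ctnna3 had 0.605, 0.269 and 0.344 CPM in the wild type and 0.633, 4.54 and 0.221 CPM in the knockout. Ctnna3 was thus high in KO2 only, while Lrrtm3 was high in all 3 knockout libraries. Without KO2 Ctnna3 had a log2 fold change of -0.027 (SE 0.75), from 4 to 17 read pairs per library, and Lrrtm3 one of 1.08. Whether reads of host genes enter the counts of the members was not tested. Ctnna1 and Snd1 had log2 fold changes of -0.16 (SE 0.11) and -0.12 (SE 0.11). None of the 4 host genes passed (edgeR, 1 with an unadjusted p under 0.05, and 0 with DESeq2 or limma voom). Of all genes tested, 14.20% had such an unadjusted p.

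Other genes of synapse formation were taken from lists by function: 14 binding partners of the members, 48 other synaptic organisers and 14 postsynaptic scaffold genes. Of these 76 genes, 72 were tested and none rose or fell past the threshold (edgeR), with 23 at an unadjusted p under 0.05, 15 higher and 8 lower. That is 31.9%, where 14.20% of all genes tested had such a p. The lists were chosen with earlier results of these data known, so these shares are a description only. DESeq2 called 10 of them, 7 higher and 3 lower, where it called 3.41% of all genes, and limma voom, which called 0.422% of all genes, called 0. Their median log2 fold change was 0.15, against 0.011 over all genes, and 0.049 without KO2.

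Among the partners, 9 of 14 had a positive log2 fold change, where 7334 of all 14233 genes tested did. The median of the partners was 0.28 (0.15 without KO2), and 0 passed (edgeR, 6 with an unadjusted p under 0.05, 1 by DESeq2 and 0 by limma voom). Nrxn2 and Nrxn3 encode neurexins, presynaptic partners of LRRTM proteins and cerebellins, and they went different ways. Nrxn2 had 9.40, 9.14 and 7.71 CPM in the wild type and 3.48, 7.04 and 4.42 CPM in the knockout (adjusted p = 0.285), and it fell without KO2 (log2 fold change -1.15, edgeR, adjusted p = 0.0228). For Nrxn3, the log2 fold change was 1.15 (SE 0.39, edgeR, adjusted p = 0.292), from 15 to 50 read pairs per library. So Nrxn3 had all knockout libraries above the wild type ones and Nrxn2 had them below.

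Among receptors of the cerebellins, Grid1 and Dcc were higher on average without passing. Grid1 stood at 7.91 ± 1.40 CPM in the wild type and 13.3 ± 3.500 CPM in the knockout (SD, n = 3 each; edgeR, adjusted p = 0.263). Dcc, a netrin receptor that Cbln4 can bind, had 32.5, 26.98 and 24.7 CPM in the wild type and 35.8, 82.2 and 40.5 CPM in the knockout (edgeR, adjusted p = 0.292). KO2 was the highest library for Grid1 and Dcc. For Cbln4 it was not, at 4.77 CPM beside 4.87 CPM in KO1 and 7.35 CPM in KO3. Neo1, the paralogue of Dcc, had a log2 fold change of -0.078 (SE 0.11).

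The partners of the netrin-G ligands did not follow their ligands past the threshold. Ntng1, which encodes the partner of the Lrrc4c product, stood at 12.8 ± 2.16 CPM in the wild type and 17.3 ± 5.77 CPM in the knockout (SD, n = 3 each; edgeR, adjusted p = 0.447). Ntng2, which encodes the partner of the Lrrc4 product, was near 0.56 CPM in both groups. The LAR group phosphatase genes Ptprf, Ptprs and Ptprd, whose products bind that of Lrrc4b, had log2 fold changes of -0.32 (SE 0.16), -0.073 (SE 0.11) and 0.54 (SE 0.20), and adjusted p of 0.393, 0.780 and 0.323 (edgeR). The glypican genes Gpc4 and Gpc5 had log2 fold changes of 0.13 (SE 0.13) and 0.089 (SE 0.47).

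In the list of other organisers, 44 of 48 genes were tested. Of these, 24 had a positive log2 fold change, where 7334 of all 14233 genes tested did. None of the 44 passed (edgeR, 16 with an unadjusted p under 0.05, 8 by DESeq2 and 0 by limma voom). The smallest p was that of Slitrk5, a leucine-rich repeat transmembrane protein that binds LAR group phosphatases, at 16.98, 15.9 and 13.9 CPM in WT2, WT3 and WT4 and 31.6, 56.5 and 36.1 CPM in KO1, KO2 and KO3. Its log2 fold change was 1.41 (SE 0.22, edgeR, adjusted p = 0.0532) and 1.11 without KO2 (adjusted p = 0.00221). Without that library 6 genes of the 3 lists passed, 4 higher and 2 lower, where 2.12% of all genes passed. Besides Slitrk5 and Nrxn2 these were Slitrk2, the latrophilin-like receptor Bai3, which binds C1q-like proteins, the leucine-rich repeat protein Lrfn5 and Flrt1, a latrophilin ligand, which were chosen after their values were seen. Their log2 fold changes in that fit were 0.92 for Slitrk2 (edgeR, adjusted p = 0.00954), 0.98 for Bai3 (adjusted p = 0.00703), 1.67 for Lrfn5 (adjusted p = 0.0475) and -0.90 for Flrt1 (adjusted p = 0.0191). Of 14 scaffold genes 9 had a positive log2 fold change and 0 passed (edgeR, 1 with an unadjusted p under 0.05, 1 by DESeq2 and 0 by limma voom), and Shank2, a postsynaptic density scaffold, had the smallest p, at 11.5 ± 2.62 and 6.05 ± 1.24 CPM (SD, n = 3 each; edgeR, adjusted p = 0.202).

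**Figure D4:**
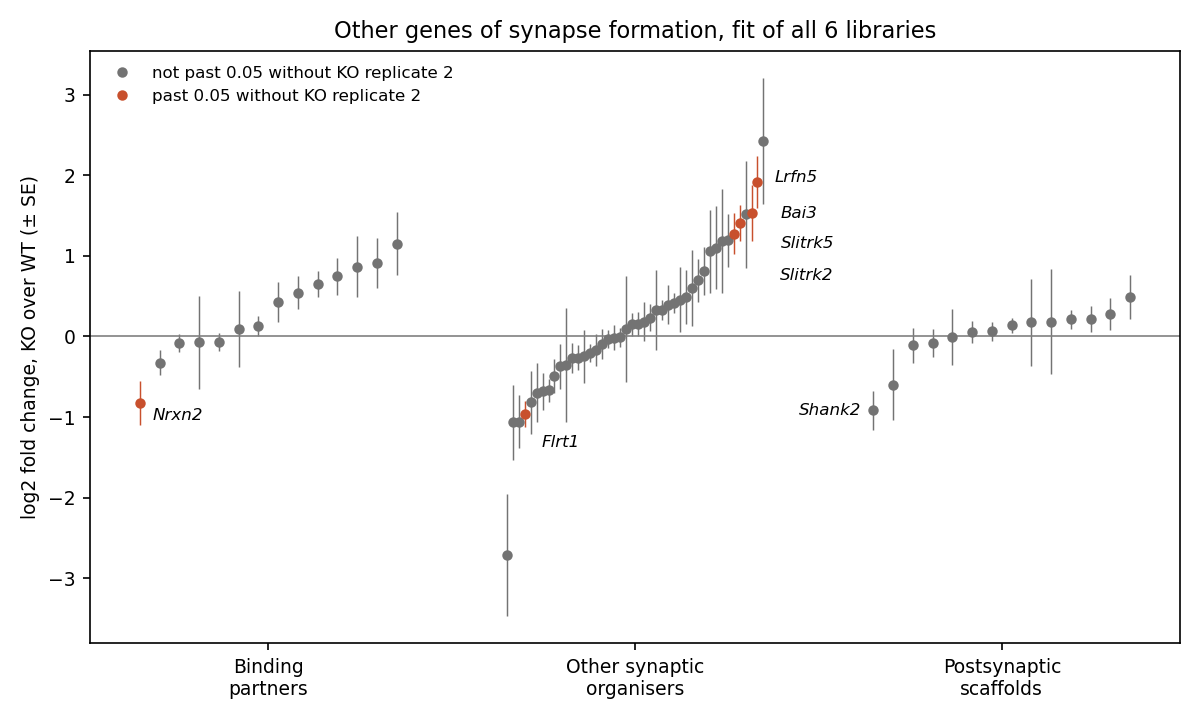
Log2 fold change, knockout over wild type (± SE, all 6 libraries), of the 72 tested genes of the partner, organiser and scaffold lists, ordered within each list. None passes an adjusted p of 0.05 with all libraries, and the 6 genes in orange pass without KO2.

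Markers of other cells were read beside the members. The 15 neuron markers were all detected in every library and their summed level was 288, 406 and 262 CPM in WT2, WT3 and WT4 and 208, 503 and 349 CPM in KO1, KO2 and KO3. KO1 thus had the lowest neuronal sum of the 6 libraries, and its Lrrtm3, Lrrc4c and Cbln4 levels, 22.7, 15.6 and 4.87 CPM, were above those of all wild type libraries. Single markers differed from the sum. Of the 15, 2 had all knockout libraries above the wild type ones and 0 below, where 12.3% and 11.2% of all genes tested did. The part of neurons in the members' values was not tested. For the counts of markers that follow, 14.20% of all genes tested had an unadjusted p under 0.05 (edgeR). A negative log2 fold change was found in 6899 of the 14233 genes tested. DESeq2 called 3.41% of all genes and limma voom 0.422%, and without KO2 edgeR called 1.57% lower. None of the neuron markers passed (edgeR, 2 with an unadjusted p under 0.05, and 0 by DESeq2 or limma voom). The 9 Schwann cell markers summed to 89.1 to 97.5 CPM in the wild type and 74.3 to 96.8 CPM in the knockout, and none passed (edgeR, 5 with an unadjusted p under 0.05, 1 by DESeq2 and 0 by limma voom). Epithelial markers summed to 512 to 643 CPM and 268 to 489 CPM, and muscle markers to 246 to 508 CPM and 210 to 1240 CPM, with KO2 at 268 CPM and 1240 CPM. Endothelial markers summed to 228 to 251 CPM and 182 to 208 CPM, and leukocyte markers to 43.1 to 49.2 CPM and 28.8 to 33.3 CPM. All 8 epithelial markers had negative log2 fold changes, and none passed (edgeR, 5 with an unadjusted p under 0.05, 2 by DESeq2 and 0 by limma voom), while 2 fell without KO2. All 5 endothelial markers were likewise negative, and none passed (edgeR, 3 with an unadjusted p under 0.05, and 0 by DESeq2 or limma voom). Of the 5 leukocyte markers 4 were negative and none passed (edgeR, 3 with an unadjusted p under 0.05, 1 by DESeq2 and 0 by limma voom), while 1 fell without KO2. None of the 7 muscle markers passed (edgeR, 0 with an unadjusted p under 0.05, and 0 by DESeq2 or limma voom). Lrrc4b was lower in the same libraries as the epithelial, endothelial and leukocyte sums, and their part in its values was not tested.

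Over the 6 libraries, log2 CPM of Lrrtm3, Lrrc4c and Cbln4 ran together, with Pearson correlations of 0.97 for Lrrtm3 with Lrrc4c, 0.94 for Lrrtm3 with Cbln4 and 0.93 for Lrrc4c with Cbln4. Lrrc4b ran against them, at -0.96 with Lrrtm3 and Cbln4 and -0.99 with Lrrc4c. These values are a description over 6 libraries that share the step between the groups, and the genes were picked for that step. Among genes with a mean of at least 1 CPM, those most like Lrrtm3 were Decr2, Ddx27 and Kcnj2 (correlations of 0.993 to 0.995). Kcnj2, an inward rectifier potassium channel gene, had 33.4, 41.9 and 39.3 CPM in the wild type and 63.1, 76.97 and 72.2 CPM in the knockout, so its library order matched that of Lrrtm3. Those most like Lrrc4c were Dhx58, Dpysl4 and the AMPA receptor gene Gria4 (0.990 each), and those most like Cbln4 were the transcription factor gene Bcl11a, Rapgef1 and Pacs2 (0.988 to 0.992). Bcl11a had 62.5, 56.0 and 60.7 CPM in the wild type and 82.6, 84.1 and 93.5 CPM in the knockout, a smaller step than that of Cbln4. Those most like Lrrc4b were Tmprss2, Nos1 and Acadl (0.993 to 0.995), and Nos1, the neuronal nitric oxide synthase gene, had 2.85, 3.45 and 2.67 CPM in the wild type and 0.316, 0.303 and 0.276 CPM in the knockout.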

How the data were processed

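Palatal shelf RNA of 3 wild type and 3 knockout samples was sequenced as paired 25 bp reads from a stranded mRNA kit, per the labels' protocols. The authors deposited 1 table of raw read pair counts by gene symbol for each library. The submitters' processing notes name TopHat2, SAMtools, HTSeq and mm9. Tool versions, annotation and strand setting were not given in the sources used here. Category lines of the counting program, among them pairs outside genes (12.3% to 47.5% of listed pairs), stayed out of library sizes and tests. Groups and replicate numbers came from the sample titles. The labels call the samples biological replicates without naming animals or batches, so p-values measure the spread between these samples.

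Counts were scaled by the trimmed mean of M-values, filtered with filterByExpr and tested by quasi-likelihood in edgeR 4.0.16 (R 4.3.3), robust and with the current method, with Benjamini-Hochberg adjustment over 14233 genes at 0.05. The fit was tested on simulated data. Standard errors come from the fitted model. Alternatives were other size factors, DESeq2 1.42.0, limma 3.58.1 voom, other filters, a replicate block, leaving out each library and, added after seeing the data, edgeR's earlier method. The members and gene lists were chosen with earlier results of these data known. All members and host genes were named, with the genes of each other list past the threshold or of smallest p (some are not reported here), and the 3 genes with the highest correlation to each member past the threshold, computed on log2(CPM + 0.5). Lengths and nesting came from GENCODE vM21 (GRCm38), promoters from RefSeq.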

Additional observations from a re-analysis of the deposited data

How the results depend on the processing

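The fit of all 6 libraries called 76 genes, 4 members and 0 of the 72 tested partner, organiser and scaffold genes. DESeq2 called 486 genes (3.41% of those tested), the same 4 members and 10 of those list genes. With limma voom 0.422% of genes and 2 members passed. With no filter on low counts 0.587% of genes, the same 4 members and 3 list genes passed. Leaving out 1 library gave 0 to 306 genes, 0 to 4 members and 0 to 6 list genes; the highest counts were those without knockout replicate 2. With the replicate number as a block, 298 genes (2.09% of those tested) and 11 list genes passed, and 3 members, without Lrrc4c (adjusted p = 0.0974). Only numbers 2 and 3 occur in both groups, so the block fit compared WT2 and WT3 with KO2 and KO3. WT4 and KO1, each alone in a block, added nothing to its fold changes. The deviations of same-numbered libraries correlated at 0.207 and -0.141, so the numbers were not taken to pair samples. Signs turned only for genes that did not pass: Lrrtm1 was 0.016 with limma voom, 0.13 with the replicate block, 0.13 without wild type replicate 4 and 0.014 without knockout replicate 2. Lrrc4 was -0.01 with the replicate block and -0.011 without knockout replicate 3, Cbln2 was 0.24 without wild type replicate 2, and Lrrtm2 was -0.70 without knockout replicate 2. With single libraries left out, Lrrtm2 ran from -0.70 to 1.17 and Cbln2 from -0.78 to 0.24. The cause of these changes was not tested. Median log2 fold changes of all genes stayed between -0.002 and 0.022 over the settings. Members with under 100 read pairs in a library, which were Lrrtm2, Lrrtm4, Lrrc4, Cbln1, Cbln2 and Cbln4, had the largest standard errors. These ran from 0.22 for Lrrc4 and 0.27 for Cbln4 to 0.78 for Lrrtm2.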

Other observations

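The Slitrk genes encode leucine-rich repeat transmembrane organisers that share LAR group phosphatases as partners with the Lrrc4b product, and they were looked at as a family after their values were seen. Of the 6 members, Slitrk1 to Slitrk5 had positive log2 fold changes of 0.70 to 2.43 and Slitrk6 had -0.17, and none passed with all libraries (edgeR, with 4 at an unadjusted p under 0.05, where 14.20% of all genes tested had such a p). DESeq2 called Slitrk1, Slitrk2 and Slitrk5, where it called 3.41% of all genes, and limma voom called none. Slitrk1 had 2.49, 1.30 and 1.34 CPM in WT2, WT3 and WT4 and 2.28, 21.04 and 4.92 CPM in KO1, KO2 and KO3. KO2 was the highest library for Slitrk1, Slitrk2, Slitrk3, Slitrk4 and Slitrk5 and the lowest for Slitrk6. In Lrrtm3 and Lrrc4c that library was also the highest, but by a smaller margin over the other knockout libraries, at 26.3 against 22.7 and 23.8 CPM for Lrrtm3 and 18.5 against 15.6 and 15.4 CPM for Lrrc4c.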
